A study of Mus musculus with 36 samples.

Results

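Otx2, Pou3f1, Fgf5, Zic2, Zic5, Lef1, Sall2 and Meis1 were taken as a set of genes linked to the exit from naive pluripotency. Their RNA was followed here in processing bodies (P-bodies), in cytoplasm and on ribosomes of mouse cells. The 8 genes were taken by symbol, out of 25239 genes in the table of P-body and cytoplasm libraries, 25229 in the polysome table and 48440 in the Ago2 knockout (KO) table, and all 8 were found in each. Of the 8, 7 encode transcription factors, while Fgf5 encodes a secreted growth factor. The series held 36 samples in 16 groups, 12 groups of 2 and 4 groups of 3. Naive embryonic stem (ES) cells were v6.5 cells, from an F1 cross of C57BL/6 × 129S4Sv/Jae,, kept with inhibitors of MEK (PD0325901) and GSK3 (CHIR99021) and with LIF. Primed cells were made from them on Matrigel with activin A and bFGF. The Ago2 KO cells were naive ES cells from clones edited by CRISPR-Cas9. Mouse embryonic fibroblasts (MEFs) were profiled beside MEFs on day 3 of reprogramming, which were either controls or had Nudt21 knocked down by a short hairpin RNA. The day 3 cells came from mice with an inducible cassette of pluripotency factors and were grown with doxycycline. Cells for P-body isolation carried a GFP-LSM14A fusion, and P-bodies were sorted as fluorescent particles from the cytoplasmic fraction they were compared with. Polysome-bound and total RNA came from naive ES cell clones whose DDX6 protein carries a degron, a tag through which an added compound brings about degradation. These clones were made from ES cells that carried GFP-LSM14A. Control cells were of the same kind without the compound, dTAG-13. The treated cells had it for hours rather than days before lysis.

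Naive and primed describe an earlier and a later state of the epiblast, the tissue that gives rise to the embryo proper. Between these states cells pass through a formative phase, in which OTX2 redirects OCT4 to new enhancers and in which Pou3f1 and Fgf5 are switched on. ZIC2 and ZIC5 are zinc finger factors of the same family, and LEF1 is the DNA-binding partner of β-catenin in WNT signaling. SALL2 is a spalt-type zinc finger factor, and MEIS1 is a homeodomain factor that binds DNA with HOX proteins. P-bodies are cytoplasmic condensates that hold untranslated mRNA together with DDX6, LSM14A and microRNA effectors. Argonaute 2, the product of Ago2, carries microRNAs to their targets.

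MicroRNAs pair with messages mainly through their seed, bases 2 to 8, and the study relates them to P-body content. Its text names let-7, miR-300 and miR-381 there, and miR-294-3p was added here. The mature mouse sequences, from RefSeq, are given with the seed in capitals.
let-7a-5p: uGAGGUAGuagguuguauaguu
miR-300-3p: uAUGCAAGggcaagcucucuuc
miR-381-3p: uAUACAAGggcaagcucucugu
miR-294-3p: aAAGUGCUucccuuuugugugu
The microRNA miR-294-3p belongs to the family that is abundant in ES cells. One annotated 3′ untranslated region (UTR) per gene was searched for the DNA letters that pair with each seed, on the message strand only. The let-7a-5p match, CTACCTC, was in 0 of the 8 members and in 9.93% of 15351 UTRs. The miR-300-3p match, CTTGCAT, was also in 0 members, beside 9.59% of UTRs. The miR-381-3p match, CTTGTAT, was in 2 members, Lef1 and Sall2, and in 12.2% of UTRs. The miR-294-3p match, AGCACTT, was in Lef1 and Zic5 and in 16.2% of UTRs. Windows of 29 bases around 3 of these matches are printed with the match in capitals, read along the message in mm10.
Lef1 miR-381-3p match, chr3:131223683-131223711, plus strand: tttttattttcCTTGTATatttttgctag
Sall2 miR-381-3p match, chr14:52311503-52311531, minus strand: ttccctcacccCTTGTATttcccttgctg
Lef1 miR-294-3p match, chr3:131224067-131224095, plus strand: gtaaaaagcccAGCACTTgaattgttctt
A match is a string of letters in the reference and not a measured site, and no microRNA was measured in these libraries.

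The 8 genes differ in place and in base composition. Zic5 (chr14:122456795-122465677, minus strand) and Zic2 (chr14:122475435-122479852, plus strand) are neighbours, 9757 bases apart and on opposite strands. Sall2 (chr14:52311172-52328762) and Otx2 (chr14:48657677-48673819) lie on the same chromosome, both on the minus strand. Pou3f1 is a gene of 1 exon on chromosome 4, Fgf5 has 3 exons on chromosome 5, Lef1 has 12 exons on chromosome 3 and Meis1 has 10 exons on chromosome 11. Transcript GC content ran from 42.4% in Meis1, at percentile 11.3 of 15472 protein-coding genes, to 63.9% in Pou3f1, at percentile 99.2. Between these stood Otx2 at 46.8%, Fgf5 at 47%, Zic5 at 49.8%, Lef1 at 51.4%, Sall2 at 53.2% and Zic2 at 59.9%. Meis1 also had the longest 3′ UTR of the 8, at 5687 bases, and Zic2 the shortest, at 609 bases.

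The 8 naive and primed libraries held 6769727 to 12772173 assigned reads, and the 12 MEF and day 3 libraries 19384697 to 31185799. Depth was 13308776 to 29362187 reads in the 12 libraries of polysomes and total RNA. It was 15624342 to 17486206 in the 4 libraries of Ago2 KO cells. All 24 replicate pairs differed by more than sampling noise, but to unlike degrees. The chi-square per degree of freedom ran from 1.78 in naive P-bodies to 306 in Ago2 KO cytoplasm, and was 28 in naive cytoplasm. The study describes the naive and primed replicates as biologically independent samples, but the labels do not say which replicates came from separate cultures, and p-values measure the spread between these samples. In naive cells 15 naive marker genes summed to between 3030 and 3730 counts-per-million (CPM), and in primed cells to between 500 and 547 CPM. Ago2 stood at 2.57 to 4.52 CPM in the libraries labelled Ago2 KO. Neural markers (7 genes) summed to 87.1 and 90.8 CPM in primed P-bodies, where all 7 were detected, but to 28.4 and 34.2 CPM in primed cytoplasm. Fibroblast markers (10 genes) summed to 51.2 and 77.7 CPM in naive cytoplasm and to 13.6 and 16.9 CPM in naive P-bodies, with Postn, Lum, Dcn and Prrx1 at 0 in both. Endoderm markers (7 genes) summed to 17.6 and 20.4 CPM in naive and to 91.9 and 107 CPM in primed cytoplasm, and to 7.52 and 7.64 CPM in naive and 60.3 and 65.9 CPM in primed P-bodies, with 6 of the 7 detected in naive cytoplasm and all 7 in the other groups. Whether these had a part in the results was not tested. Fewer cells of a type and less RNA per cell cannot be told apart in such bulk samples.

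Cytoplasmic RNA was compared first between the states. Of the 8 members, 7 were higher in primed than in naive cytoplasm and none was lower, where 21.6% of 16125 genes tested were higher and 22.1% lower (edgeR quasi-likelihood test, adjusted p under 0.05). The endoderm markers given above were also higher in primed cells. The median log2 fold change of the 8 was 2.42, beside -0.0033 over all genes. In P-body RNA 5 of the 8 were higher in primed cells, Otx2, Pou3f1, Fgf5, Sall2 and Meis1, where 34.3% of 16177 genes were higher. Zic2, Zic5 and Lef1 were not called in P-body RNA. P-body enrichment, the log2 fold change of P-body over cytoplasmic RNA, was called higher than 0 for 3 of the 7 members tested in naive cells (22.6% of 15630 genes were, and 15.4% were called lower). In primed cells it was called higher than 0 for 4 of 8 (26.5% of 16177 genes) and called lower for 1 of 8 (24.2%). The difference in enrichment between the states, tested as an interaction over 4 groups, was called for 5 of 8 members, 2 upward and 3 downward, where 11.4% and 13.9% of 17199 genes were.

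**Figure D1:**
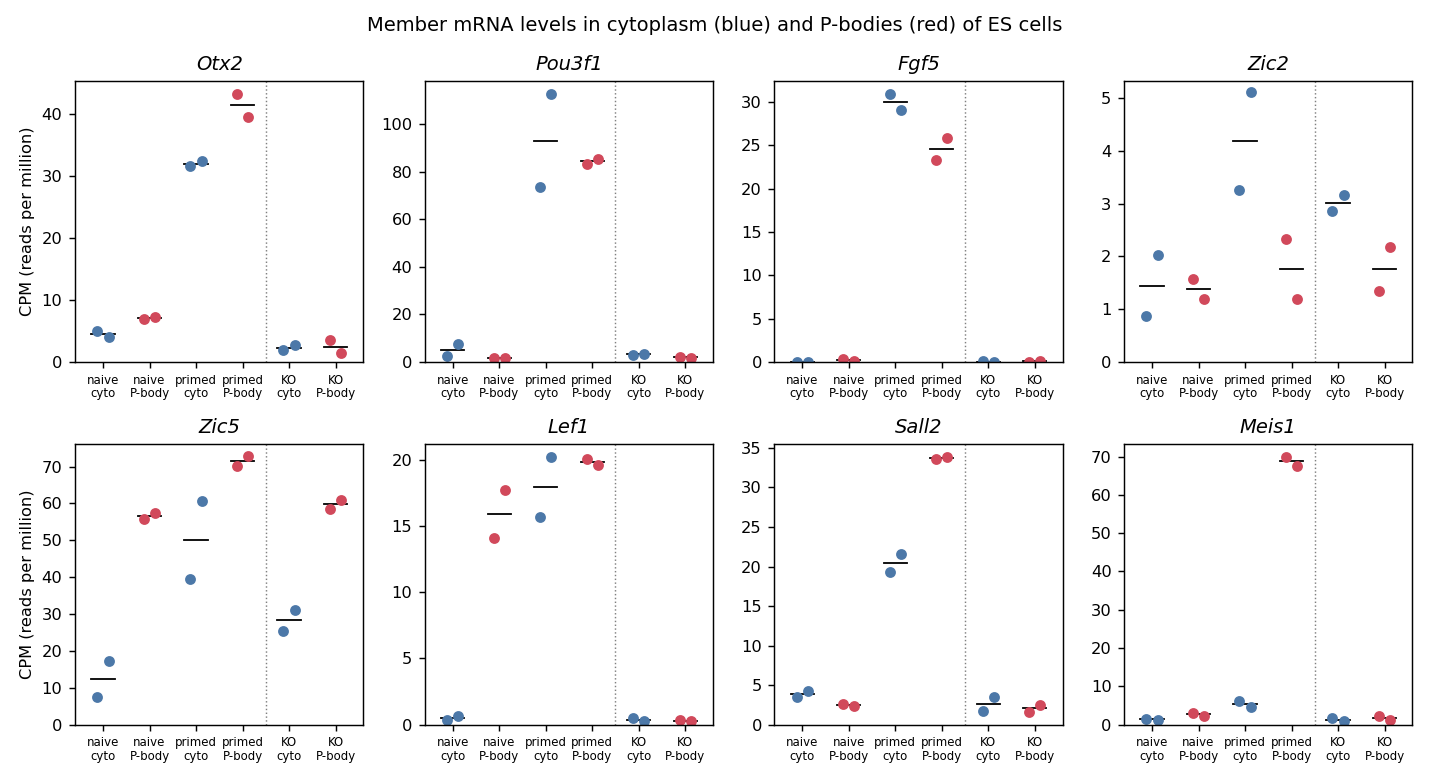
Level of each member in CPM (vertical axes, a scale per gene from 0) in cytoplasm (blue) and P-bodies (red) of naive, primed and Ago2 KO ES cells. Each point is a library and each line the mean of 2, and the dotted line sets off the KO libraries, which come from a separately quantified table. Lef1 is near 0 in naive cytoplasm but not in naive P-bodies, and Meis1 is high only in primed P-bodies among these groups.

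Lef1 RNA was found in naive P-bodies while it was nearly absent from naive cytoplasm. Lef1 stood at 14.1 and 17.7 CPM (152 and 222 reads) in naive P-bodies and at 0.313 and 0.649 CPM (4 and 8 reads) in naive cytoplasm. The groups did not overlap, and the ratio of their means was 33. Fitted enrichment in naive cells was 5.25 ± 0.36 (log2, SE, n = 2 per group, edgeR adjusted p = 0.000556), at percentile 99.8 of all genes tested. Primed P-bodies held 20.1 and 19.6 CPM of Lef1 and primed cytoplasm 15.7 and 20.2 CPM. There the groups overlapped, with an enrichment of 0.17 ± 0.15 (edgeR adjusted p = 0.356). Lef1 was 37.3-fold higher in primed than in naive cytoplasm (log2 5.0 ± 0.40, edgeR adjusted p = 0.000593), while its P-body level differed by 0.084 ± 0.13 (adjusted p = 0.57). The interaction was -4.93 ± 0.39 (edgeR adjusted p = 0.000163), and it was called under all 14 alternatives run. In the polysome table Lef1 stood at 9.85 to 12.9 CPM in control total RNA of naive cells. Those libraries came from the degron line, another kit and another quantification tool. This level was not compared by test with the 12 reads of the naive cytoplasm. Exons of Lef1 share 1208 bases with Gm43352 on the opposite strand, as do those of Meis1 (896 bases), Pou3f1 (330) and Otx2 (154) with other genes. On the same strand, exons of Meis1 share 1029 bases with Gm37818 and those of Otx2 168 bases with Gm49154. Whether counting used strand was not stated.

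Zic5 was enriched in P-bodies of both states, and more so in naive cells. Zic5 stood at 55.7 and 57.5 CPM in naive P-bodies and at 7.36 and 17.4 CPM in naive cytoplasm. Its naive enrichment was 2.43 ± 0.36 (edgeR adjusted p = 0.00518). Primed P-bodies held 70.2 and 72.9 CPM and primed cytoplasm 39.6 and 60.6 CPM, again without overlap, for an enrichment of 0.54 ± 0.15 (edgeR adjusted p = 0.00811). The cytoplasmic level rose 4.05-fold between the states (log2 1.84 ± 0.41, edgeR adjusted p = 0.0147), and the P-body level differed by 0.11 ± 0.069 (adjusted p = 0.167). The interaction was -1.75 ± 0.43 (edgeR adjusted p = 0.0173). It missed the threshold when any of naive P-body replicate 1, naive P-body replicate 2, primed P-body replicate 1, primed P-body replicate 2 or primed cytoplasm replicate 2 was left out, at adjusted p between 0.0578 and 0.082. The primed call was lost with DESeq2 (adjusted p = 0.142) and with all groups in one fit (adjusted p = 0.181), and the rise in cytoplasm was lost without primed cytoplasm replicate 2 (adjusted p = 0.0957).

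Zic2, the neighbour of Zic5, had few reads in the naive and primed libraries. It stood at 1.58 and 1.19 CPM in naive P-bodies, 0.861 and 2.03 CPM in naive cytoplasm, 2.33 and 1.18 CPM in primed P-bodies and 3.25 and 5.11 CPM in primed cytoplasm. The fractions overlapped in naive cells and were separate in primed cells, where Zic2 was lower in P-bodies with an enrichment of -1.22 ± 0.39 (edgeR adjusted p = 0.019). That call rests on 14 to 41 reads a library and was lost with DESeq2 (adjusted p = 0.0806), with all groups in one fit (adjusted p = 0.273), without primed P-body replicate 2 (adjusted p = 0.129) and without primed cytoplasm replicate 2 (adjusted p = 0.151). Zic2 was the member not called between naive and primed cytoplasm (log2 1.35 ± 0.52, edgeR adjusted p = 0.0815), although it was called without naive cytoplasm replicate 2 (2.06, adjusted p = 0.00232). In the polysome table, which another tool quantified, Zic2 stood at 89.5 to 92.5 CPM in control total RNA of naive cells. The cause of the gap between the tables was not tested.

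Meis1 was the member with the highest enrichment in primed cells. Meis1 stood at 69.9 and 67.5 CPM in primed P-bodies and at 6.20 and 4.49 CPM in primed cytoplasm, a ratio of means of 12.8. Enrichment in primed cells was 3.73 ± 0.14 (edgeR adjusted p = 1.01e-09), at percentile 99.6 of all genes tested. In naive cells the P-body libraries held 3.06 and 2.23 CPM and the cytoplasm 1.49 and 1.30 CPM, also without overlap, but the enrichment of 1.14 ± 0.39 did not pass the test (edgeR adjusted p = 0.0717). It did pass without naive cytoplasm replicate 1 (adjusted p = 0.00957) or replicate 2 (adjusted p = 0.035). From naive to primed cells Meis1 rose 26-fold in P-bodies (log2 4.48 ± 0.14) and 3.84-fold in cytoplasm (log2 1.73 ± 0.39, edgeR adjusted p = 0.0158). The interaction was 2.74 ± 0.35 (edgeR adjusted p = 0.000993), called under all 14 alternatives. The cytoplasmic rise was not called without primed cytoplasm replicate 1 (adjusted p = 0.16) or replicate 2 (adjusted p = 0.0813). The summed level of the neural markers given above was also higher in primed P-bodies than in primed cytoplasm.

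Sall2 was enriched in P-bodies of primed cells. Primed P-bodies held 33.6 and 33.9 CPM of Sall2 and primed cytoplasm 19.4 and 21.6 CPM, for an enrichment of 0.75 ± 0.12 (edgeR adjusted p = 0.000166). In naive cells the order was turned, with 2.60 and 2.39 CPM in P-bodies and 3.45 and 4.22 CPM in cytoplasm, but the enrichment of -0.39 ± 0.31 was not called (edgeR adjusted p = 0.355). The interaction of 1.29 ± 0.25 was called (edgeR adjusted p = 0.00632) and held under all 14 alternatives. Sall2 rose 13.5-fold in P-bodies (log2 3.53 ± 0.16) and 5.34-fold in cytoplasm (log2 2.22 ± 0.24, edgeR adjusted p = 0.00143).

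**Figure D2:**
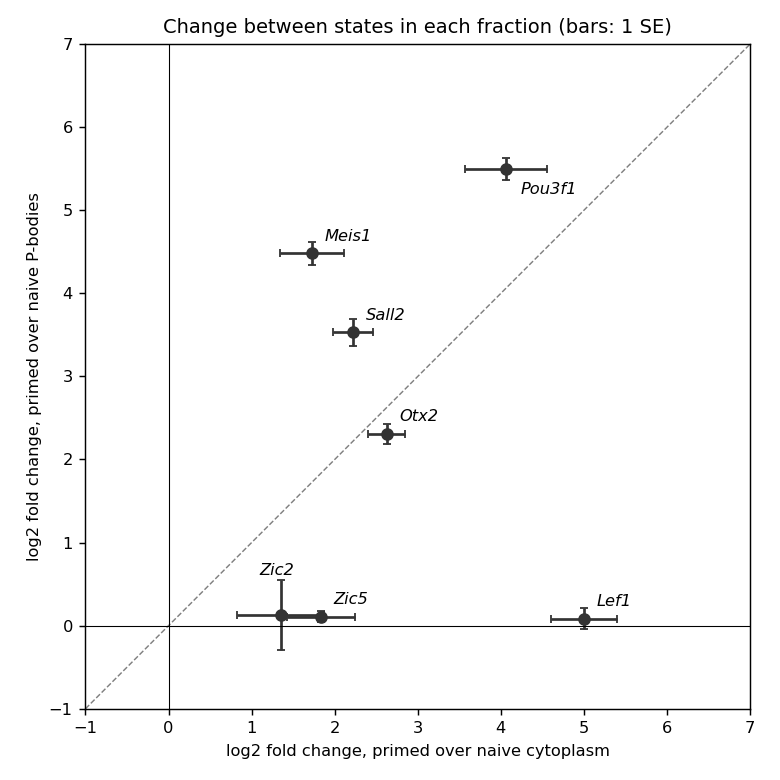
Log2 fold change from naive to primed cells in cytoplasm (horizontal axis) and in P-bodies (vertical axis) for 7 members, with bars of 1 SE. Fgf5 is left out because it had 0 reads in naive cytoplasm. Zic2 is drawn although it averaged 1.57 CPM in the P-body fit, under the limit of 2 CPM for printed values. Points above the dashed line of equality changed more in P-bodies, as Meis1 and Sall2 did by the interaction test, and Lef1 at 5.0 and 0.084 lies far below it.

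Otx2 rose in both fractions and was called enriched in P-bodies of both states. Otx2 stood at 43.2 and 39.5 CPM in primed P-bodies and at 31.6 and 32.3 CPM in primed cytoplasm, with an enrichment of 0.41 ± 0.10 (edgeR adjusted p = 0.00598). Naive P-bodies held 6.96 and 7.24 CPM and naive cytoplasm 4.93 and 4.05 CPM, with an enrichment of 0.88 ± 0.26 (edgeR adjusted p = 0.0468). The groups were separate in both states. The 2 enrichments did not differ by the interaction test (-0.33 ± 0.22, 95% interval -0.77 to 0.11 by the normal approximation to the SE, edgeR adjusted p = 0.319). The naive call was lost with DESeq2 (adjusted p = 0.0823), without naive P-body replicate 1 (adjusted p = 0.275) and without naive P-body replicate 2 (adjusted p = 0.305), and the primed call with all groups in one fit (adjusted p = 0.323) and without primed P-body replicate 1 (adjusted p = 0.071). Otx2 was 7.11-fold higher in primed cytoplasm (log2 2.62 ± 0.23, edgeR adjusted p = 0.000729) and 5.82-fold higher in primed P-bodies (log2 2.31 ± 0.12).

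Pou3f1, the POU factor also called OCT6, rose in both fractions without a call in either state's enrichment. It stood at 73.4 and 112.5 CPM in primed cytoplasm and at 83.3 and 85.4 CPM in primed P-bodies, so that the groups overlapped (enrichment -0.11 ± 0.14, edgeR adjusted p = 0.545). The sign turned with the cytoplasm library kept, at -0.39 without replicate 1 (adjusted p = 0.000145) and 0.24 without replicate 2 (adjusted p = 0.0371). Naive P-bodies held 1.49 and 1.67 CPM and naive cytoplasm 2.35 and 7.46 CPM, for an enrichment of -1.39 ± 0.59 (edgeR adjusted p = 0.123). Without naive cytoplasm replicate 1 it was -1.97 (adjusted p = 4.61e-09), and the interaction, 1.42 ± 0.62 (edgeR adjusted p = 0.131), became 1.99 (adjusted p = 0.000683). With DESeq2 on all libraries the interaction was called at 1.35 (adjusted p = 0.0496). Pou3f1 rose 19-fold in cytoplasm (log2 4.06 ± 0.49, edgeR adjusted p = 0.00202) and 53.5-fold in P-bodies (log2 5.50 ± 0.14).

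Fgf5 was close to off in naive cells. It had 0 reads in both naive cytoplasm libraries and 3 and 2 reads in naive P-bodies, too few for the naive test. Primed cytoplasm held 30.9 and 29.1 CPM (209 and 233 reads) and primed P-bodies 23.3 and 25.9 CPM (280 and 306 reads). Against a floor of 3 reads over the naive cytoplasm group, Fgf5 was at least 250-fold higher in primed cytoplasm. Primed P-bodies lay below primed cytoplasm without overlap, but the enrichment of -0.25 ± 0.12 was not called (edgeR adjusted p = 0.096). The interaction for Fgf5 was called, but its fitted size depends on the prior count added to a group at 0 and is no measure of fold. The call was lost without naive P-body replicate 1 or either naive cytoplasm replicate (adjusted p 0.0557 to 0.11).

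**Figure D3:**
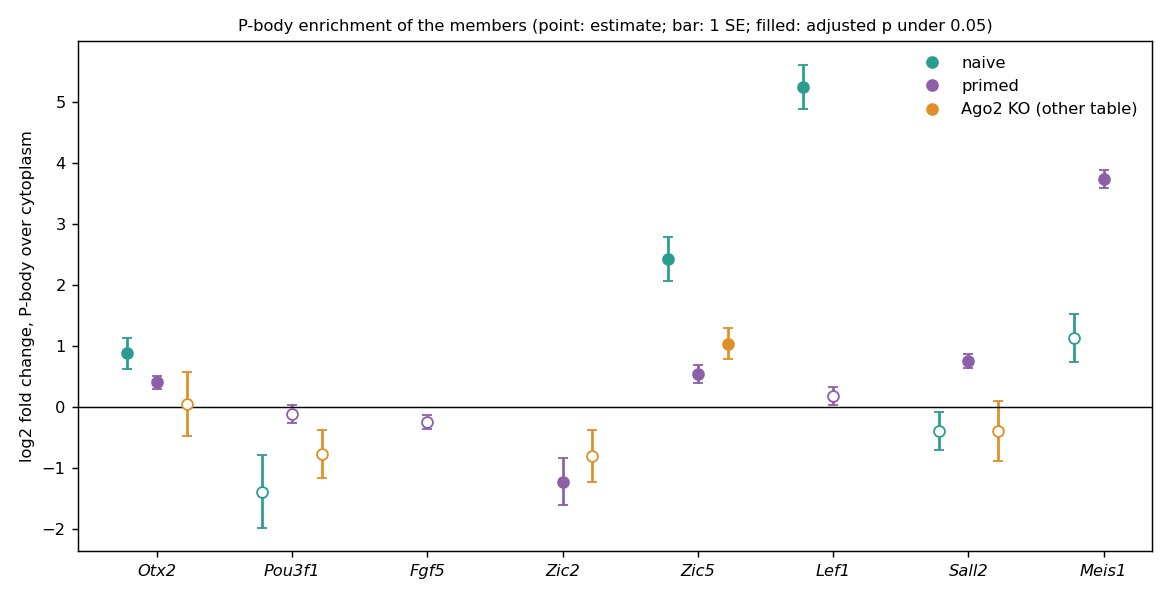
P-body enrichment of each member (vertical axis, log2 fold change of P-body over cytoplasm) in naive, primed and Ago2 KO cells, with bars of 1 SE. Filled points passed an edgeR adjusted p of 0.05, and members with under 2 CPM on average in a comparison are not drawn. Lef1 and Zic5 stand highest in naive cells, at 5.25 and 2.43, and Meis1 in primed cells, at 3.73.

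In Ago2 KO cells 1 of the 7 members tested, Zic5, was called enriched, where 5.47% of 16808 genes were. Zic5 stood at 58.5 and 61.0 CPM in KO P-bodies and at 25.4 and 31.1 CPM in KO cytoplasm, for an enrichment of 1.04 ± 0.25 (edgeR adjusted p = 0.0432). The call was lost with DESeq2 size factors (adjusted p = 0.0734) and without KO P-body replicate 1 (adjusted p = 0.395) or replicate 2 (adjusted p = 0.321). Lef1 was nearly absent from both KO fractions, at 0.32 and 0.286 CPM in P-bodies and 0.488 and 0.248 CPM in cytoplasm, which is 4 to 8 reads a library. Beside this stand the 14.1 and 17.7 CPM of Lef1 in naive P-bodies. The KO libraries were quantified with another tool and annotation, so no test was made between the tables. Meis1 held 2.18 and 1.20 CPM in KO P-bodies and 1.65 and 0.99 CPM in KO cytoplasm, and Otx2 held 3.58 and 1.37 CPM beside 1.89 and 2.72 CPM, both with overlap. Fgf5 had 0 to 2 reads a library.

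In fibroblasts Meis1 and Sall2 lay lower in P-bodies than in cytoplasm. Meis1 stood at 30.5 and 28.8 CPM in MEF cytoplasm and at 21.3 and 20.3 CPM in MEF P-bodies, the reverse of its order in primed cells (enrichment -0.53 ± 0.11, edgeR adjusted p = 0.00338). Sall2 stood at 10.04 and 7.57 CPM in MEF cytoplasm and at 5.45 and 4.37 CPM in MEF P-bodies (-0.86 ± 0.22, edgeR adjusted p = 0.00837). These were the 2 members called in MEFs, both lower, of 6 tested, where 28.7% of 16198 genes were lower and 26.6% higher. Both calls were lost without MEF cytoplasm replicate 1, at adjusted p = 0.154 for Sall2 and 0.0875 for Meis1. Zic5 and Lef1 remained detectable in MEFs, at 1.93 to 3.60 CPM and 2.57 to 3.56 CPM, with overlapping fractions. Otx2, Pou3f1, Fgf5 and Zic2 had at most 8 reads in any MEF library.

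Meis1 was also detected throughout on day 3 of reprogramming. Day 3 control cells held 37.8 and 36.5 CPM of Meis1 in cytoplasm and 29.8 and 18.4 CPM in P-bodies, and Nudt21 knockdown cells held 33.1 and 35.3 CPM in cytoplasm and 27.6 and 25.5 CPM in P-bodies. In day 3 control cells 0 of 5 members tested were called by edgeR or DESeq2, and 1, Meis1, had an unadjusted p under 0.05, where 0.646% of 15786 genes were called by edgeR. In Nudt21 knockdown cells 1 of 6 was called, Sall2, lower in P-bodies (-0.60 ± 0.19, edgeR adjusted p = 0.0475), where 12.8% of 15995 genes were lower. Sall2 stood there at 5.69 and 4.73 CPM in knockdown P-bodies and at 7.80 and 8.04 CPM in cytoplasm, and the call was lost with DESeq2 (adjusted p = 0.0859), without knockdown P-body replicate 2 and without either cytoplasm replicate (adjusted p 0.119 to 0.245). Meis1 in day 3 control cells was called without P-body replicate 1 (-0.97) or without replicate 2 (-0.33), and in knockdown cells without P-body replicate 1 (-0.42, adjusted p = 0.0145).

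**Figure D4:**
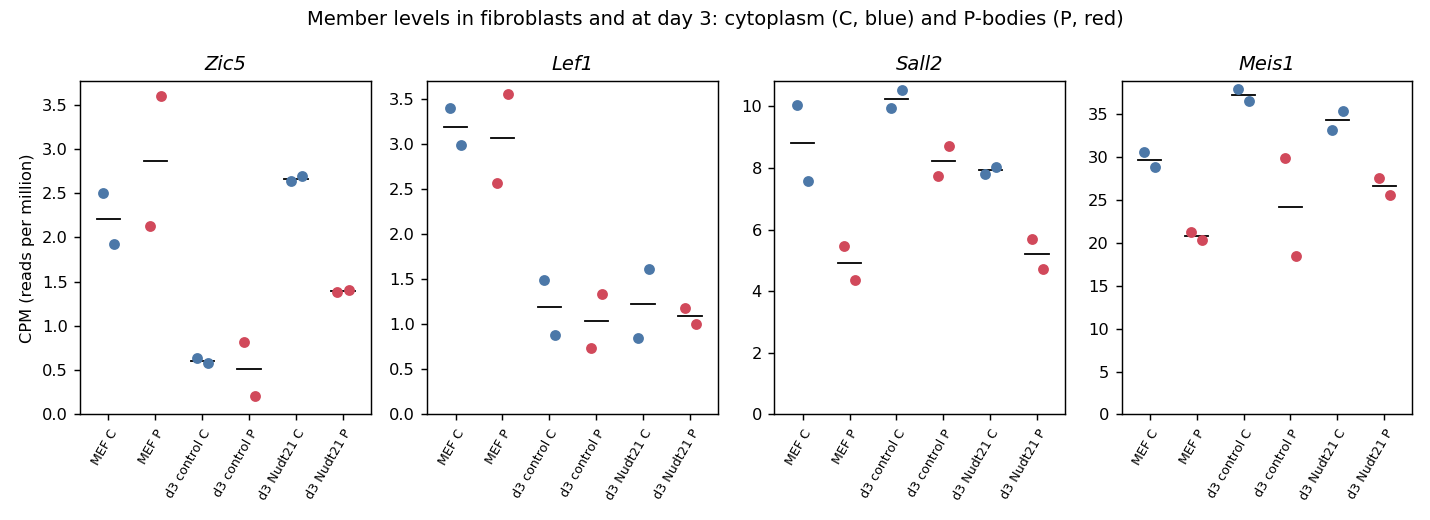
Levels of 4 members in CPM (vertical axes from 0) in cytoplasm (C, blue) and P-bodies (P, red) of MEFs, day 3 control (d3 control) and day 3 Nudt21 knockdown (d3 Nudt21) cells. Points are libraries and lines means of 2. Meis1 and Sall2 lie lower in P-bodies than in cytoplasm in every pair of groups, and not every pair passed the test.

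Ribosome occupancy, the log2 fold change of polysome-bound over total RNA, was called lower than 0 for 2 of the 8 members in control naive cells, where 24.1% of 15411 genes were called lower and 18.8% higher. They were Zic2 and Sall2. Zic2 stood at 79.5, 75.9 and 63.5 CPM in control polysomes and at 92.5, 90.3 and 89.5 CPM in control total RNA, an occupancy of -0.48 ± 0.071 (edgeR adjusted p = 3.65e-05). Sall2 stood at 3.78, 3.95 and 2.86 CPM in polysomes and at 6.18, 6.20 and 5.57 CPM in total RNA, an occupancy of -0.91 ± 0.15 (edgeR adjusted p = 0.000128). Neither pair of groups overlapped. Zic5 lay higher in polysomes without passing the test (0.19 ± 0.097, edgeR adjusted p = 0.123), and Lef1 overlapped between fractions (-0.29 ± 0.13, edgeR adjusted p = 0.0863, or 0.0284 without control total RNA replicate 2). Otx2, Pou3f1, Fgf5 and Meis1 were under 2 CPM in every polysome and total RNA library.

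After DDX6 loss the same 2 members were called lower on polysomes, where 26.8% of 15638 genes were called lower. Occupancy was -0.37 ± 0.049 for Zic2 (edgeR adjusted p = 1.13e-06) and -1.04 ± 0.14 for Sall2 (edgeR adjusted p = 1.29e-06). These values share no libraries with the control values. The change in occupancy on DDX6 loss was called for 0 of 8 members by edgeR or DESeq2, with 0 at an unadjusted p under 0.05. Over 16345 genes edgeR called 0%, although 844 genes had an unadjusted p under 0.05 and DESeq2 called 4. The change was 0.11 ± 0.086 for Zic2, with a 95% interval of -0.059 to 0.28, and -0.13 ± 0.20 for Sall2, with an interval of -0.52 to 0.25. For Zic5 it was -0.093 ± 0.13 and for Lef1 0.11 ± 0.16.

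After DDX6 loss the level of 1 member, Zic2, was called lower. Total RNA of degron cells held 69.6, 70.8 and 74.1 CPM of Zic2, all below the control values above, for a log2 fold change of -0.34 ± 0.056 (edgeR adjusted p = 0.00888, where 2.07% of 15380 genes were lower). Polysome RNA of degron cells held 62.9, 63.7 and 62.4 CPM, for a change of -0.22 ± 0.060 (edgeR adjusted p = 0.0483, where 2.36% of 15625 genes were lower), and there the groups overlapped. The total RNA call was lost without degron total RNA replicate 1 (adjusted p = 0.0998) or replicate 2 (adjusted p = 0.059), and the polysome call without any degron polysome replicate or control polysome replicate 1 or 2 (adjusted p 0.0935 to 0.221). Lef1 total RNA was lower in all 3 degron libraries, at 8.82 to 9.69 CPM beside 9.85 to 12.9 CPM in control, without passing the test (-0.32 ± 0.12, edgeR adjusted p = 0.144). An unadjusted edgeR p under 0.05 was reached by 2 of the 8 members in total RNA and by 4 in polysome RNA. The median log2 fold change of the 8 was -0.22 in total RNA and -0.20 in polysome RNA, beside 0.0080 and 0.0062 over all genes. These medians include the members under 2 CPM.

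**Figure D5:**
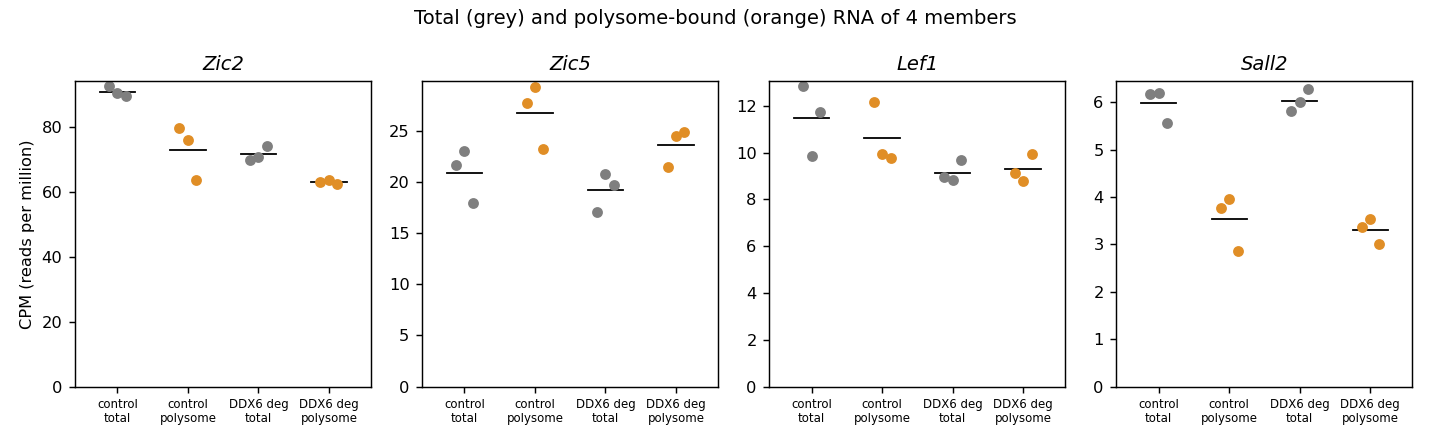
Levels of the 4 members above 2 CPM in the polysome table, in CPM (vertical axes from 0), in total RNA (grey) and polysome-bound RNA (orange) of control and DDX6 degron (DDX6 deg) cells. Points are libraries and lines means of 3. Sall2 is lower in polysomes in both conditions, at 2.86 to 3.95 CPM beside 5.57 to 6.20 CPM in control, and Zic2 total RNA is lower after DDX6 loss.

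Other genes of the same transitions were read from 3 hand-written lists. Of 24 other formative and primed genes, 18 were called higher and 2 lower in primed than in naive cytoplasm, where 21.6% and 22.1% of all genes were. Their median log2 fold change was 2.60. Cer1, an antagonist of Nodal and BMP signals, was called higher, as was Lefty1, a Nodal antagonist (6.94 ± 0.36, edgeR adjusted p = 2e-04), and Tcf7l1, a repressor of the LEF family, was lower (-1.28 ± 0.18, edgeR adjusted p = 0.00348). In naive cells 9 of 23 tested were called enriched in P-bodies and 1 depleted, where 22.6% and 15.4% of all genes were. In primed cells 7 of 24 were enriched and 14 depleted, where 26.5% and 24.2% of all genes were. Among the enriched in naive cells were Sox11, a SOX factor of neural progenitors (4.95 ± 0.56, edgeR adjusted p = 0.00208), and Lefty1 (3.58 ± 0.33, edgeR adjusted p = 0.00111). The primed cells gave Sox3 at 2.67 ± 0.31 and the adhesion gene Cdh2 at 1.70 ± 0.12 among the enriched, and Etv4, an ETS factor downstream of FGF signals, at -2.35 ± 0.13 among the depleted. The interaction was called for 2 upward and 9 downward of 24, where 11.4% and 13.9% of all genes were, with a median of -0.95 beside 0.043 over all genes. On ribosomes of control cells 12 of 23 were lower and 0 higher, where 24.1% and 18.8% of all genes were. Among the lower were the DNA methyltransferases Dnmt3b (-1.43 ± 0.069) and Dnmt3a (-0.86 ± 0.085). On DDX6 loss 5 of 23 were called lower and 0 higher in total RNA, where 2.07% of all genes were lower. In polysome RNA 5 of 23 were also called lower and 0 higher, where 2.36% of all genes were lower.

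Relatives and partners of the members formed a list of 21. In primed cells 9 of 17 tested were called enriched in P-bodies and 2 depleted, where 26.5% and 24.2% of all genes were. In naive cells 8 of 17 were enriched and 1 depleted, where 22.6% and 15.4% of all genes were. Meis2, a close relative of Meis1, was enriched in both states, at 2.46 ± 0.37 in naive and 3.41 ± 0.083 in primed cells. Sp5, a WNT target, turned from 3.74 ± 0.29 in naive to -3.33 ± 0.73 in primed cells, with an interaction of -6.93 ± 0.69 (edgeR adjusted p = 0.000378), and Axin2, another WNT target, had an interaction of -1.87 ± 0.33. Ctnnb1, which encodes β-catenin, was lower on ribosomes of control cells (-1.95 ± 0.062). Of 15 naive genes, 14 were lower and 1, Gbx2, higher in primed cytoplasm, where 22.1% and 21.6% of all genes were, with a median of -3.97. In naive P-bodies 4 of the 15 were enriched and 4 depleted, where 22.6% and 15.4% of all genes were.

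Patterns across the 10 groups of P-body and cytoplasm libraries were compared by Pearson's r of log2(CPM + 1) over group means, as a description in which fractions share depth and cell type. Otx2, Pou3f1, Fgf5 and Zic2 ran together, with r between 0.79 and 0.95 for each pair. Zic5 was as close to Otx2 (0.95) and Zic2 (0.91), and stood at 0.78 with Pou3f1 and 0.73 with Fgf5. Lef1 stood between 0.70 and 0.81 with Otx2, Pou3f1, Fgf5 and Zic2. The values for Zic2 rest on at most 41 reads a library. Meis1 ran apart from all of these genes, between -0.54 and 0.06, and was nearest to Sall2 at 0.53. Sall2 itself was closer to Fgf5 (0.82) and Pou3f1 (0.72), and stood between 0.28 and 0.51 with Otx2, Zic2, Zic5 and Lef1. Of 11677 genes with a mean of at least 5 CPM over the groups, Fgf5 was most like Car4 (0.998) and Fgf8 (0.995), Otx2 most like Smc1b (0.993) and Meis1 most like Irx5 (0.969). Lef1 was most like Dnm1l (0.98), Zic5 most like Sycp1 (0.988), Sall2 most like Ssbp3 (0.968), Zic2 most like Sec61a2 (0.993) and Pou3f1 most like Prph (0.99).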

How the data were processed

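For the P-body and cytoplasm libraries of ES cells, MEFs and day 3 cells, the authors aligned reads to mm10 with HISAT2 and deposited estimated counts per refGene gene from featureCounts. Fractions of reads appear in 17.6% to 25.7% of the values of a library, and how shared reads were divided was not stated. Polysome, total RNA and Ago2 KO libraries were deposited as salmon's expected counts per gene. The tables of the authors' own comparisons were not used.

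Counts were rounded to whole numbers. Each of 14 comparisons was fitted with edgeR (version 4.0.16, R version 4.3.3), TMM scaling and the quasi-likelihood test, two-sided, over all genes with at least 10 reads summed over its libraries. A gene was called at a Benjamini-Hochberg adjusted p under 0.05. SEs were derived from the test statistic. CPM use the library total, and ratios of means are of CPM. Fitted values are printed for members with a mean of at least 2 CPM in the fit, a limit chosen after the data were seen. Lists were written by hand, and at most 3 called genes per direction were named. The members and lists were chosen with earlier results of these data known. Alternatives were DESeq2 (version 1.42.0), its size factors, filterByExpr, no filter, a replicate block, all groups in one fit and leaving out each library, where a lone library is assumed to vary like the other groups. The test was checked on data simulated with known changes. Gene models and UTRs came from GENCODE on mm10, and 90% of 17199 genes matched. Plots used matplotlib (version 3.10.9).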

Additional observations from a re-analysis of the deposited data

Results flagged for a closer look

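The P-body enrichment of 5 members differed between naive and primed cells by the interaction test. As primed minus naive log2 enrichment, the differences were -4.93 for Lef1, -4.68 for Fgf5, -1.75 for Zic5, 1.29 for Sall2 and 2.74 for Meis1. The value of Fgf5 rests on 0 reads in naive cytoplasm and 5 in naive P-bodies and depends on the prior count. Naive cytoplasm replicates also differed among themselves, with 7.36 and 17.4 CPM of Zic5 and 2.35 and 7.46 CPM of Pou3f1.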

How the results depend on the processing

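Members called higher or lower numbered 5 rather than 3 in naive enrichment with all groups in one fit, 3 (DESeq2) and 2 (all groups) rather than 5 in primed enrichment, 0 rather than 1 in Ago2 KO with DESeq2 size factors, 1 rather than 0 in day 3 control with all groups, 0 (DESeq2, all groups) and 2 (no filter) rather than 1 in Nudt21 knockdown, and 0 rather than 1 for polysome RNA on DDX6 loss with all groups. Leaving out a library gave 2 to 5 in naive enrichment, 4 to 6 in primed enrichment, 3 to 5 for the interaction, 5 to 8 in cytoplasm, 0 to 1 in Ago2 KO, 0 to 2 in MEFs, day 3 control, Nudt21 knockdown and DDX6 polysome RNA, and 0 to 1 in DDX6 total RNA. The causes were not tested.

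Each P-body sort started from a cytoplasmic fraction of which an aliquot was kept, and polysome lysates also gave the total RNA, but no label says that a replicate number marks a preparation. Same-numbered deviations correlated at 0.60 in Ago2 KO, 0.17 in Nudt21 knockdown, 0.14 in day 3 control, 0.068 in primed, -0.0094 in MEF and -0.048 in naive cells, and at -0.0059 to 0.19 in the polysome sets, so the block is given here only. With the replicate block the members called went from 3 to 2 in naive enrichment (Otx2, adjusted p = 0.0689) and from 1 to 0 in DDX6 total RNA (Zic2, adjusted p = 0.0618), and the count was equal in the other 12 comparisons. Over all genes the block moved Ago2 KO calls from 1095 to 4178, day 3 control calls from 102 to 802, DDX6 total RNA calls from 509 to 82 and DDX6 occupancy calls from 0 to 6. Naive and primed cytoplasm replicates gave a correlation of -0.135. A crossed pairing, added after the data were seen, gave 7 members and 7188 genes called, beside 7 and 7056.

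Signs turned for 9 values that were not called. Leaving out a library gave primed enrichments from -0.0015 to 0.38 for Lef1 and -0.39 to 0.24 for Pou3f1, P-body differences between states from -0.058 to 0.26 for Lef1, Ago2 KO enrichments from -0.79 to 0.59 for Otx2 and -0.97 to 0.23 for Sall2, MEF enrichments from -0.061 to 0.68 for Zic5 and -0.32 to 0.14 for Lef1, and DDX6 total RNA changes from -0.031 to 0.033 for Sall2. With all groups in one fit the P-body difference between states was -0.039 for Zic5 and -0.057 for Lef1, and with the block Otx2 in Ago2 KO cells was -0.031.

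Over all genes, day 3 control calls were 102, and 2105 with DESeq2, 1940 with no filter, 3308 with all groups and 202 with filterByExpr. Ago2 KO calls were 716 with DESeq2 size factors, 1731 with DESeq2 and 2643 with no filter. Primed enrichment had 5128 calls with all groups beside 8209, and Nudt21 knockdown 2100 beside 3501. DDX6 total RNA had 832 with DESeq2, 863 with no filter and 1138 with all groups, polysome RNA 1029 with no filter and 362 with all groups beside 666, and DDX6 occupancy 16 with no filter. Leaving out 1 library moved the calls over all genes, on which the background shares rest, to 2056 (naive P-body replicate 1) and 10018 (naive cytoplasm replicate 2) from 5941 in naive enrichment, and with the same libraries to 2293 and 7089 from 4349 for the interaction. Cytoplasm calls went from 7056 to 2242 (primed cytoplasm replicate 1), Ago2 KO from 1095 to 446 (P-body replicate 1) and 5617 (cytoplasm replicate 1), MEF from 8955 to 5595 (cytoplasm replicate 1), day 3 control from 102 to 8752 (P-body replicate 1), Nudt21 knockdown from 3501 to 1017 (cytoplasm replicate 2) and 5729 (P-body replicate 2), DDX6 total RNA from 509 to 6 (degron replicate 1) and 3373 (control replicate 3), polysome RNA from 666 to 179 (control replicate 1) and DDX6 occupancy from 0 to 52 (control total RNA replicate 3).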
